A study of Mus musculus with 7 samples.

Results

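The mG900 region lies downstream from *Gata3* on mouse chromosome 2 and was used as a bait for circular chromosome conformation capture sequencing (4C-seq), which asks where in the genome a chosen stretch of DNA is found close to other DNA. The regions described here are those called as interacting with the mG900 bait on chromosomes other than 2. They were chosen by chromosome alone, as every entry off chromosome 2 in the 3 lists of significant interacting regions made with this bait. There were 282 such regions, of 406 in the 3 lists and of 1153 in the 7 lists of the series. Of the 282 regions, the list of WT naive CD4+ T cells held 44, that of WT Th0 cells 68 and that of WT Th2 cells 170. Overlapping calls, sharing at least 1 base, were joined into 272 loci.

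The study compared the folding of chromatin around *Gata3* between naive CD4+ T cells and cultured helper T cells, with 1 bait at the *Gata3* transcription start site (TSS) and 1 in the mG900 region. All 3 mG900 libraries came from wild-type cells, the study's mice being C57BL/6. The naive CD4+ T cells were purified from spleen and lymph nodes. Th0 cells were naive cells stimulated for 3 days through CD3ε, by antibody bound to the plate, and through CD28, by soluble antibody, with no cytokine and no blocking antibody, and Th2 cells received the same stimulation with IL-4 and anti-IFN-γ. The labels give no age, sex or number of mice and do not say whether mice were pooled, and they list all 3 libraries as untreated. The 4 *Gata3*-TSS libraries, used here for comparison, were from naive, Th0 and Th2 cells of WT mice and from Th2 cells of mG900KO mice, which lack the mG900 region. Each condition had 1 library, so no spread between replicates could be measured and no test was made. The lists hold a chromosome, a start and an end only, so the depth of each library is unknown, a region is either called or not, and a longer list cannot be told apart from a deeper library. Cell identity could not be checked against marker genes, because only DNA contacts were measured.

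In 4C-seq, crosslinked chromatin is cut with the restriction enzyme NlaIII, which recognizes CATG, and DNA ends held close together are ligated before the partners of the bait are amplified and sequenced. According to the paper, the ligated DNA was then cut again, and the enzyme of this later cut depended on the bait. It was DpnII for mG900, whereas *Gata3*-TSS templates received BglII. The labels instead name DpnII throughout. What part the later cut has in any difference between the baits, here and below, was not tested. Most partners of any bait lie on its own chromosome, and contacts with other chromosomes are rarer, more scattered and more easily imitated by repeated sequence. GATA3 is the transcription factor that directs Th2 differentiation, and enhancers spread over a long gene-poor stretch control its gene. Contacts between chromosomes are known in helper T cells, where regulatory DNA of cytokine genes on different chromosomes can share a nuclear neighborhood.

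The sequence at the bait is shown first, because every region below was called as interacting with this stretch. The point 932 kb downstream from the *Gata3* start in RefSeq (GRCm38, chromosome 2, position 9878600, minus strand) falls in an NlaIII fragment of 770 bases that overlaps no annotated gene. The nearest protein-coding genes are *Celf2*, 1437 kb away, and *Gata3* itself, whose annotated 3′ end is 909.8 kb away. The bait was placed by this distance alone. The first 150 bases of the fragment, chr2:8946523-8946672 on the plus strand, carry the NlaIII site in capitals.
mG900 bait fragment: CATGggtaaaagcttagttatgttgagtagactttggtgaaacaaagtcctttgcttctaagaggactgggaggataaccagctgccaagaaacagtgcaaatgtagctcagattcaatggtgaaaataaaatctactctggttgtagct

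Promoters of some T cell genes that lay inside WT Th2 regions are shown next, as examples of DNA in the called regions. The lists do not show which part of a region met the bait. Each line gives the 250 bases before a RefSeq start, 5′ to 3′ on the strand of the gene. Capitals mark matches, on either strand, to GATA sites (AGATAA as well as AGATAG, and TGATAA as well as TGATAG) or to AP-1 sites (TGANTCA). *Il1rl1* encodes the IL-33 receptor ST2, a surface protein of Th2 cells and ILC2s, and has a distal and a proximal start. *Il7r* encodes the IL-7 receptor α chain on which naive T cells depend, and *Themis* encodes an adaptor of T cell receptor signaling. The positions in GRCm38 are chr1:40429320-40429569 for the distal and chr1:40439379-40439628 for the proximal *Il1rl1* promoter, both on the plus strand, chr15:9529877-9530126 on the minus strand for *Il7r* and chr10:28668110-28668359 on the plus strand for *Themis*.
Il1rl1 distal promoter: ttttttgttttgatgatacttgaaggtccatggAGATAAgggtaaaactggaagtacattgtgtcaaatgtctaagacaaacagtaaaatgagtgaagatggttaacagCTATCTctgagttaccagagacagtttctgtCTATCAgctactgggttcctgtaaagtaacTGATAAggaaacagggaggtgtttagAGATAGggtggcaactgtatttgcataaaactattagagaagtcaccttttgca
Il1rl1 proximal promoter: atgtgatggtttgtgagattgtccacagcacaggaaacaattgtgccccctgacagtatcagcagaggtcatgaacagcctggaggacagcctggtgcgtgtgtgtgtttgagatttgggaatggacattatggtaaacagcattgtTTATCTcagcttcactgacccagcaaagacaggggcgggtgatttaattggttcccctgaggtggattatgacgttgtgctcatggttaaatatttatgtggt
Il7r promoter: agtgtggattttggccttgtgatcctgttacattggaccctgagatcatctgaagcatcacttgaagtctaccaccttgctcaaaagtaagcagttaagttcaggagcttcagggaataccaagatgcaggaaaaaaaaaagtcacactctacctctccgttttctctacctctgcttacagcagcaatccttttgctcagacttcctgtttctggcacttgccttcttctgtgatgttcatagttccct
Themis promoter: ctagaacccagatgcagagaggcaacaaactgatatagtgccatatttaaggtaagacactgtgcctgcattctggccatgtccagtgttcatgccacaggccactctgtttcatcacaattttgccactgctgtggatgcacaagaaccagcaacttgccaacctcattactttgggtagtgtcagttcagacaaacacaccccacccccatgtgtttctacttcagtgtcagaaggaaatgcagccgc

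The distal *Il1rl1* promoter held 5 matches to the GATA letters and the proximal promoter held 1, whereas the *Il7r* and *Themis* promoters held 0 matches to any of the letters searched. Of all 29772 RefSeq promoters on the other chromosomes, 14 (0.047%) held at least 5 GATA matches. This threshold equals the count of the distal *Il1rl1* promoter, which was shown as an example, so its rarity is not read further. Other T cell genes with a start in a WT Th2 region, such as *Ahr*, *Tgfb1* and *Tnfsf11*, are not shown. Matches to the GATA letters were present in 26.4% of all promoters, in 29.2% of the 72 promoters inside WT naive regions, in 15.7% of the 115 inside WT Th0 regions and in 24.0% of the 404 inside WT Th2 regions. The AP-1 letters occurred in 6.69% of all promoters and in 6.94%, 6.09% and 3.71% of those inside WT naive, WT Th0 and WT Th2 regions. No test was made between these shares.

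The third set shows sequence of loci that were set apart. The rule was the number of lists and not repeated sequence. Of all loci off chromosome 2, 3 were called in at least 6 of the 7 lists of both baits. These loci are the joined calls of all 7 lists. On chromosome 14 the mG900 calls begin at 19365010, so the stretch given for that locus lies outside them. The stretches are the start of the chromosome 9 locus, chr9:3000247-3000486, and of the chromosome 14 locus, chr14:19332049-19332288. Both are on the plus strand, with NlaIII sites in capitals.
chromosome 9 locus: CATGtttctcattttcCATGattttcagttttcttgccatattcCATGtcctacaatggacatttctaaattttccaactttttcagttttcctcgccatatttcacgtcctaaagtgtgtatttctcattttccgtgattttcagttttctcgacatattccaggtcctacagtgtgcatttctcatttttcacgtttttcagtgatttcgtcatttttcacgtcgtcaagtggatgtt
chromosome 14 locus: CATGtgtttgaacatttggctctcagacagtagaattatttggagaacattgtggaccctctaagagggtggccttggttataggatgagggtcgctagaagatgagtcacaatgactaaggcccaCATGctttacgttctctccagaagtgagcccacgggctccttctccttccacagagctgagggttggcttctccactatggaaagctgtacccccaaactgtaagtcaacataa

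A fragment end was counted as repeated when its 30 bases occur at more than 1 NlaIII site end of the assembly. On chromosome 9, 820 of 1138 fragment ends of the locus were repeated (72.1%), and the most repeated one had 11352 copies. On chromosome 14, 759 of 1418 ends were repeated (53.5%). On chromosome 11, 353 of 2250 ends were repeated (15.7%), although at least 1 of them had 29468 copies. These values are over the joined calls of all 7 lists. Over the mG900 calls alone, 72.1% of ends were repeated on chromosome 9, 63.1% on chromosome 14 and 18.3% on chromosome 11. The median over 23172 consecutive windows of 500 NlaIII fragments, which tile the autosomes other than 2 and chromosome X, was 9.18%. In the 3 lists the medians over regions were 9.07% in WT naive, 9.36% in WT Th0 and 8.25% in WT Th2 cells, all close to that of the genome. The loci on chromosomes 9 and 14 thus lay far above the typical region, and that on chromosome 11 moderately so. What part repeated sequence has in these calls was not tested.

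Nearly all loci were called in only 1 of the 3 mG900 lists. Of the 272 loci, 264 were called in 1 list, 6 in 2 lists and 2 in all 3 lists. The 264 loci comprised 164 from WT Th2, 64 from WT Th0 and 36 from WT naive cells. Both loci of all 3 lists, and 1 of the 6 loci of 2 lists, were among the loci set apart. Without the set-apart loci, 5 of 269 loci were called in more than 1 mG900 list, and 4 of these were shared by naive and Th2 cells. Because loci were set apart for being called in many lists, leaving them out lowers the sharing by construction, here and below. The lists are also sparse. Of the windows, 0.445% overlapped a WT naive, 0.669% a WT Th0 and 1.63% a WT Th2 region. The large number of loci called in 1 list is therefore not read as restriction to a cell type.

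**Figure D1:**
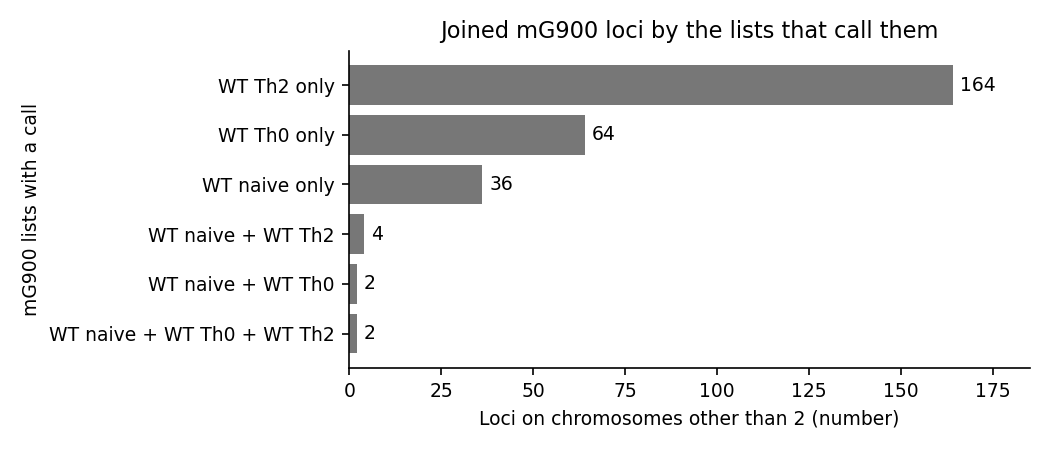
Number of joined loci on chromosomes other than 2 (x axis) for each combination of the 3 mG900 lists (y axis), with 1 library per WT cell type. Loci called in 1 list number 164, 64 and 36, and the combinations of lists hold 4, 2 and 2 loci.

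As a share of each list, 6 of 44 WT naive regions (13.6%, exact Clopper-Pearson 95% interval 5.17 to 27.4%) overlapped a WT Th2 region, and 6 of 170 WT Th2 regions (3.53%, 1.31 to 7.52%) overlapped a WT naive region. These intervals, here and below, cover counting error only and take regions as independent, which neighboring regions are not. Of the tiling windows, 1.63% overlapped a WT Th2 region and 0.445% a WT naive region, the windows being somewhat shorter than the regions. Without the set-apart loci, the naive share was 4 of 41 (9.76%) and the Th2 share 4 of 168 (2.38%). WT Th0 regions overlapped WT naive regions in 4 of 68 cases (5.88%, against 0.445% of windows) and WT Th2 regions in 2 of 68 cases (2.94%, against 1.63% of windows). In the other direction, 4 of 44 WT naive regions (9.09%) and 2 of 170 WT Th2 regions (1.18%) overlapped a WT Th0 region, as 0.669% of windows did. Without the set-apart loci, 1 of 65 WT Th0 regions overlapped a WT naive region and 0 of 65 a WT Th2 region. The overlap of the stimulated Th0 cells with Th2 cells therefore consisted of the loci on chromosomes 9 and 11 alone.

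Of the loci shared by naive and Th2 cells, the one on chromosome 4 lies over *Tox*, which encodes an HMG-box factor required for CD4+ T cell development. It spanned chr4:6890695-7028477 in WT naive cells (137.8 kb, 724 fragments) and chr4:6890701-6979539 in WT Th2 cells (88.8 kb, 502 fragments), so that the Th2 call lay wholly within the naive call. *Tox* (chromosome 4, 6686353 to 6991557, minus strand) has its annotated start inside the naive call and outside the Th2 call, which covered 29.1% of the gene. No *Gata3*-TSS list called this locus, and 3.93% of the fragment ends of the naive call were repeated.

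At chr1:88187291-88342065, only the naive call reached into the 3′ part of the *Ugt1a* cluster, whose genes encode UDP-glucuronosyltransferases of bilirubin and drug metabolism. The naive call was 154.8 kb and held the whole Th2 call of 87.7 kb. The naive call covered 19.4% of *Ugt1a10*, 21.4% of *Ugt1a9*, 24.2% of *Ugt1a8*, 26.2% of *Ugt1a7c*, 27.4% of *Ugt1a6b* and 37.7% of *Ugt1a6a*, which share their last exons. The Th2 call, chr1:88244109-88331765, held 3 protein-coding genes and none of these. *Mroh2a*, *Hjurp* and *Trpm8* also lay in the locus, which a *Gata3*-TSS region of WT naive cells overlapped. The locus at chr1:94621588-94863573 overlapped no protein-coding gene, and its naive and Th2 calls shared 94.3 kb, or 61.3% of the shorter one. The locus at chr9:35259828-35430913 held *Rpusd4*, a mitochondrial pseudouridine synthase gene, entirely, 15.7% of *Fam118b* and 11.3% of *Cdon*, a gene for a cell surface coreceptor. Its calls began at the same base in both cell types and measured 171.1 kb in naive and 96.3 kb in Th2 cells. *Cdon* overlapped the naive call only. The only shared locus of naive and Th0 cells outside those set apart, chr10:39168494-39328134, overlapped no protein-coding gene, and its calls shared 45.4 kb, or 49.8% of the shorter one.

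The set-apart locus on chromosome 9 (chr9:3000247-3120495) had the same call, 107.5 kb long, in naive and Th0 cells and a call of 118.4 kb in Th2 cells. It held 9 genes annotated as protein-coding, all with names of predicted genes such as *Gm10722*, *Gm11168*, *Gm10721*, *Gm10720*, *Gm10719* and *Gm10718*. The mG900 calls on chromosome 11 joined to chr11:3114620-3273382 and held *Sfi1*, which encodes a centrosomal centrin-binding protein, *Drg1*, a GTPase gene, and *Eif4enif1*, whose product carries the cap-binding protein eIF4E. With the *Gata3*-TSS calls this locus extended to chr11:3114620-3348228, which adds *Patz1*, *Pik3ip1* and *Limk2*. The locus on chromosome 14 was called at chr14:19365010-19524179 in Th0 cells and chr14:19365010-19524654 in naive cells, held *Gm21738*, and was not called in Th2 cells with this bait. Over all lists it spanned chr14:19332049-19524654.

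The longest loci called in 1 list differed in content between the cell types. In WT naive cells they were chr11:10295358-10484735 (189.4 kb) and chr17:39772978-39942382 (169.4 kb, with an annotated ribosomal RNA gene and 36.8% of fragment ends repeated), both without a protein-coding gene, and chr10:18512999-18676022 (163.0 kb), which held *Hebp2*, a heme-binding protein gene, and parts of *Nhsl1* and *Arfgef3*. In WT Th0 cells the longest was chr3:15490141-15790401 (300.3 kb), of which 49.96% was unknown bases and in which 65.9% of fragment ends were repeated. It held *Sirpb1b*, a signal-regulatory protein gene. The next were chr13:8921359-9093924 (172.6 kb), with *Gm9745*, *Idi2*, *Gtpbp4* and the first bases of *Larp4b*, and chr10:53525511-53697414 (171.9 kb), with *Asf1a*, a histone chaperone gene, *Mcm9* and part of *Fam184a*. In WT Th2 cells they were chr14:14434313-14731426 (297.1 kb), with the start of *Slc4a7*, a bicarbonate transporter gene, chr10:28459491-28741835 (282.3 kb), with the start of *Themis* and the end of *Ptprk*, a receptor tyrosine phosphatase gene, and chr6:38298065-38556543 (258.5 kb). The last held *Zc3hav1*, the gene of an antiviral zinc finger protein, *Ttc26*, *Ubn2* and *Fmc1* entirely and parts of *Zc3hav1l* and *Luc7l2*.

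The regions were alike in size across the lists. The shortest, median and longest region measured 82.5, 131.8 and 189.4 kb in WT naive cells, 79.95, 128.9 and 300.3 kb in WT Th0 cells and 87.7, 131.2 and 297.1 kb in WT Th2 cells. In NlaIII fragments the medians were 642, 627.5 and 635.5, and the shortest regions held 500, 503 and 500 fragments. In the *Gata3*-TSS lists the medians were 626 to 651 fragments, and the shortest region of each held 500. What part the calling method has in this likeness of size was not tested. The regions covered 5.76 Mb in naive, 8.86 Mb in Th0 and 22.9 Mb in Th2 cells, or 0.235%, 0.361% and 0.933% of the chromosomes other than 2. The lists thus differed in the number of regions and little in their typical length, and the shortest region of all spanned 79.95 kb.

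By chromosome, WT Th2 regions were most numerous on chromosomes 10 and 9. Chromosome 10 held 24 of 170 WT Th2 regions (14.1%, 9.26 to 20.3%) and 5.31% of the NlaIII sites of the chromosomes studied, a ratio of 2.66. It also held 7 of 44 WT naive regions (15.9%, 6.64 to 30.1%) but 3 of 68 WT Th0 regions (4.41%). Chromosome 9 held 18 WT Th2 regions (10.6%, 6.40 to 16.2%) for 5.20% of the sites, 3 WT naive and 3 WT Th0 regions. Chromosome 12 held 6 of 44 WT naive regions (13.6%, 5.17 to 27.4%) for 4.94% of the sites, a ratio of 2.76 beside 3.00 for naive regions on chromosome 10, and 14 WT Th2 regions (8.24%, 4.58 to 13.4%, ratio 1.67). WT Th0 regions were most numerous on chromosome 15, with 9 of 68 (13.2%, 6.23 to 23.6%) for 4.24% of the sites, whereas 0 WT naive regions and 1 WT Th2 region lay there. With the *Gata3*-TSS bait, 4.50% of 444 regions lay on chromosome 10, 6.31% on chromosome 9 and 3.60% on chromosome 15. Chromosome X, with 6.36% of the sites, held 1 region in each of the 3 lists.

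**Figure D2:**
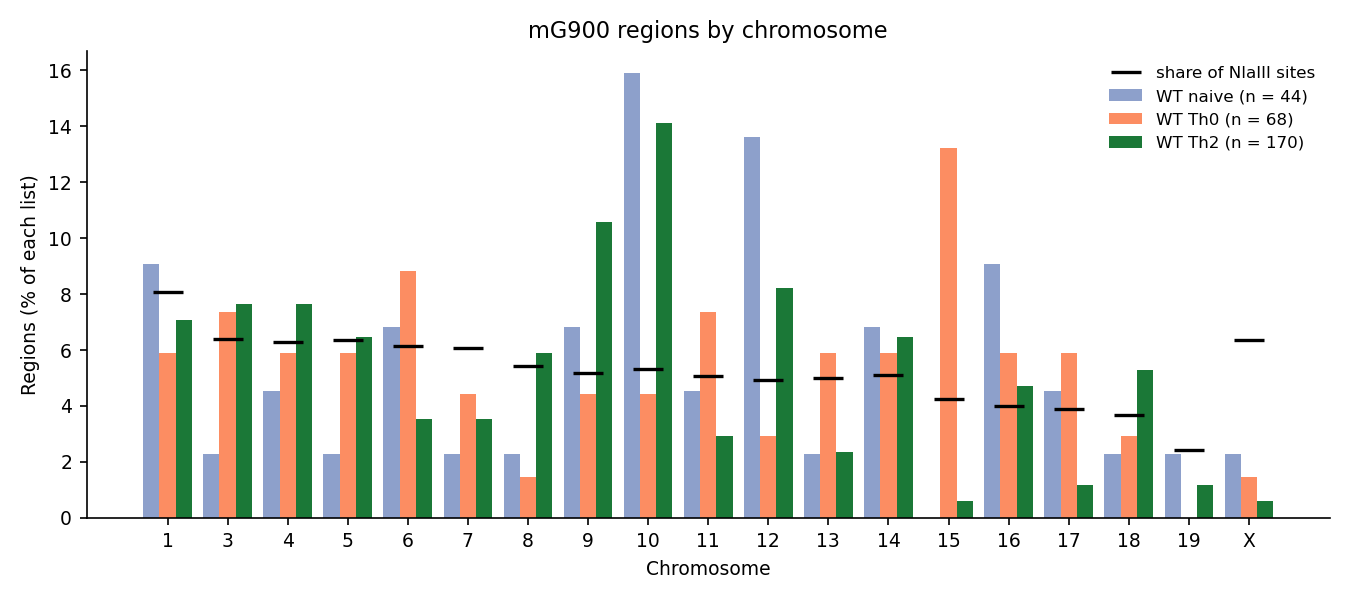
Percent of each mG900 list on each chromosome (bars: WT naive, 44 regions, WT Th0, 68 regions, WT Th2, 170 regions) beside the share of NlaIII sites of that chromosome (black marks), with 1 library per cell type. The highest bars are chromosome 10 in naive (15.9%) and Th2 cells (14.1%), chromosome 12 in naive cells (13.6%) and chromosome 15 in Th0 cells (13.2%).

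Many regions of cultured cells lay near the centromeric ends of chromosomes. Mouse chromosomes have their centromere at the end from which positions are counted, and distance was taken from the first assembled base to the middle of a region. In WT Th2 cells 74 of 170 regions (43.5%, 36.0 to 51.3%) lay within 20 Mb of this base, against 15.7% of all windows. The share was 22 of 68 (32.4%, 21.5 to 44.8%) in WT Th0 cells and 9 of 44 (20.5%, 9.80 to 35.3%) in WT naive cells. The median distance was 24.1 Mb in Th2, 35.5 Mb in Th0 and 57.2 Mb in naive cells, and 63.6 Mb over all windows. Without the set-apart loci the shares were 42.9%, 29.2% and 14.6%. The Th2 share was 38.3% without chromosomes 9 and 10, and it exceeded the share of windows on 17 of 19 chromosomes, against 12 of 18 with regions in Th0 and 6 of 18 in naive cells. The mG900 bait itself lies 5.90 Mb from the first assembled base of chromosome 2.

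**Figure D3:**
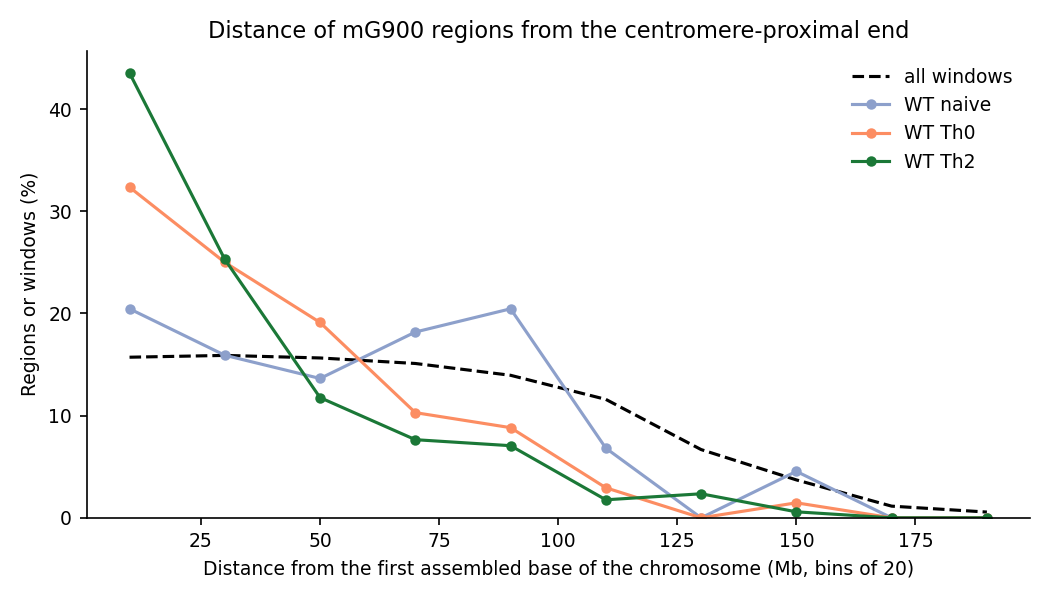
Percent of the mG900 regions of each list (solid lines, 1 library each) and of all windows of 500 NlaIII fragments (dashed line) by distance from the first assembled base of their chromosome in bins of 20 Mb, plotted at the middle of each bin. In the first bin the values are 43.5% for WT Th2, 32.4% for WT Th0, 20.5% for WT naive cells and 15.7% for windows.

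The *Gata3*-TSS lists gave similar values for cultured cells. Within 20 Mb lay 37 of 104 regions in WT Th0 (35.6%), 22 of 66 in WT Th2 (33.3%) and 36 of 96 in mG900KO Th2 cells (37.5%), and 36 of 178 in WT naive cells (20.2%). With both baits the naive share was the lowest of its bait. For the mG900 bait its interval (9.80 to 35.3%) overlapped that of WT Th0 cells (21.5 to 44.8%) but not that of WT Th2 cells (36.0 to 51.3%). For the *Gata3*-TSS bait the naive interval (14.6 to 26.9%) overlapped those of WT Th0 (26.4 to 45.6%) and WT Th2 cells (22.2 to 46.0%). It did not overlap that of mG900KO Th2 cells (27.8 to 48.0%). These intervals measure no spread between libraries. The intervals of the cultured cells also overlapped one another.

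The WT Th2 regions also lay close to one another. Of the 170 regions, 58 (34.1%) had another WT Th2 region within 1 Mb, against 12.7% of windows that lay within 1 Mb of a WT Th2 region. In WT Th0 cells it was 4 of 68 regions (5.88%), against 6.05% of windows, and in WT naive cells 0 of 44, against 4% of windows. The WT Th2 regions formed 23 runs, of which the longest, on chromosomes 9 and 10, held 6 regions each. The densest 20 Mb was on chromosome 10, where chr10:4294480-20683785 held 16 WT Th2 regions (9.41% of the list) and 0.837% of the windows. The densest 20 Mb of the WT Th0 list held 5 regions, chr15:54990686-67494051, and that of the WT naive list 3 regions, also on chromosome 10.

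The genes of this paragraph were picked with their values in view and not by the rule for named genes. In the stretch of chromosome 10, chr10:19527712-19651079 held *Ifngr1*, the ligand-binding chain of the interferon-γ receptor, and *Il22ra2*, a soluble IL-22 receptor. The neighboring regions held *Pex7*, *Map3k5*, which encodes a stress kinase, *Map7* and *Pde7b*, and others held *Akap12*, *Zbtb2*, *Rmnd1*, *Armt1*, *Esr1*, *Tab2*, *Aig1*, *Hivep2*, *Txlnb* and *Heca*. Of these 16 regions, 6 overlapped no protein-coding gene. The run on chromosome 9, chr9:13481215-15580108, held *Maml2*, a Notch coactivator gene, *Mtmr2*, *Cep57*, *Fam76b*, *Sesn3*, *Endod1*, *Vstm5*, the Mediator subunit gene *Med17*, *Taf1d*, *Cep295*, *Smco4* and *Deup1*.

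Regions without a protein-coding gene made up the smallest share of the WT Th2 list. Of the regions, 16 of 44 (36.4%) in WT naive, 18 of 68 (26.5%) in WT Th0 and 29 of 170 (17.1%) in WT Th2 cells overlapped no protein-coding gene, against 8137 of 23172 windows (35.1%). Protein-coding genes numbered 13.2, 12.5 and 16.5 per Mb of region, and 12.4 per Mb of window. Without the set-apart loci the densities were 11.8, 11.6 and 16.2 per Mb. The median GC content was 41.6% in naive, 42.6% in Th0 and 42.8% in Th2 cells and 41.4% over windows. Windows within 20 Mb of the first assembled base had 11.3 genes per Mb and a median GC content of 40.6%, and were thus poorer in genes than the WT Th2 regions, many of which lay there. In the *Gata3*-TSS lists, 10.6 to 13.5% of regions overlapped no protein-coding gene. By the paper's methods that bait also had another enzyme in the later cut, so this difference is not read as one of contacts.

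**Figure D4:**
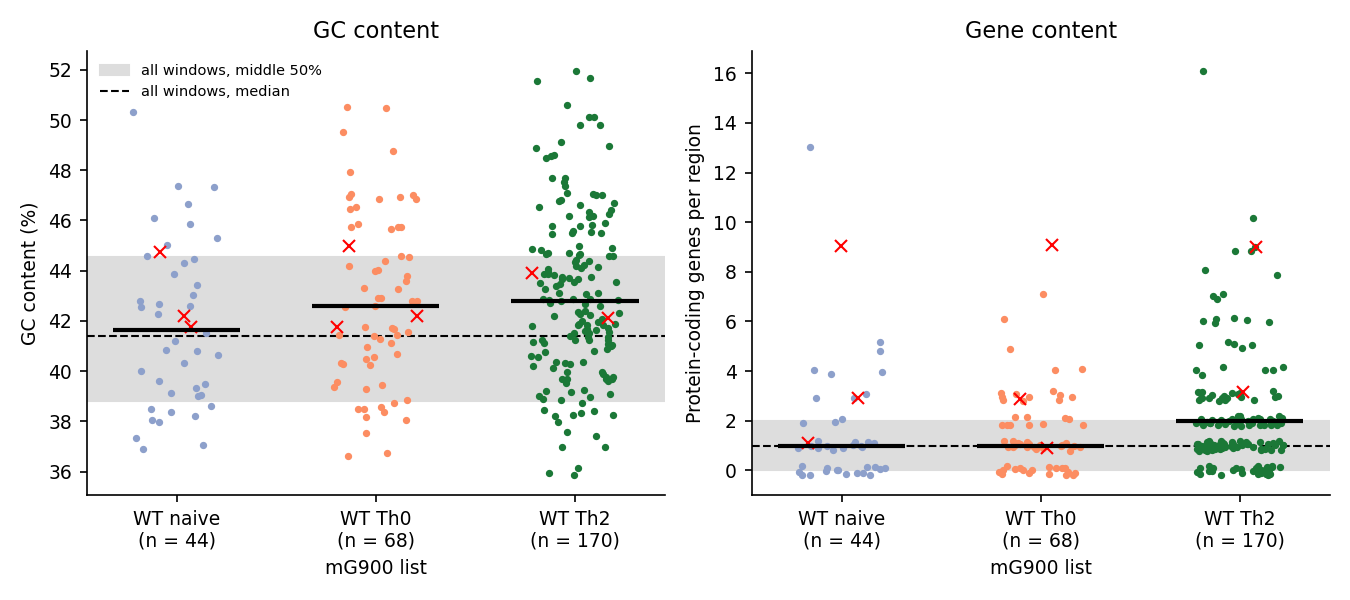
GC content (left, percent) and number of protein-coding genes (right, jittered) of each mG900 region by list, 44, 68 and 170 regions of 1 library each. Points are regions, red crosses are regions of the set-apart loci, black bars are medians of the regions, and the grey band and dashed line give the middle 50% and the median of all windows of 500 NlaIII fragments. The medians of GC content are 41.6%, 42.6% and 42.8%, against 41.4% for windows.

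In all, 532 of the 19912 protein-coding genes annotated by GENCODE on the other chromosomes (2.67%) overlapped a region of at least 1 list. There were 76 genes in WT naive regions (0.382%), 111 in WT Th0 regions (0.557%) and 376 in WT Th2 regions (1.89%). Naive and Th2 cells shared 18 genes, naive and Th0 cells 13, and Th0 and Th2 cells 12, the last 12 being in all 3 lists. These 12 genes are those of the set-apart loci on chromosomes 9 and 11.

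Genes of T cells occurred in the WT Th2 regions. Of 144 genes in 6 lists of T cell and chromatin genes, 11 (7.64%) overlapped a WT Th2 region, against 1.89% of all genes, 1 (0.694%) a WT naive region and 0 a WT Th0 region. Overlap favors long genes, and the median length was 25.1 kb for the genes of the lists and 17.7 kb for all genes. When the annotated start had to lie in the region, 8 of 144 (5.56%) were called in WT Th2 cells, against 1.46% of all genes. The lists are not a sample of genes, and they were chosen with earlier results of these data known. They may thus hold genes already seen in these regions. No test was made, and no excess of T cell genes is read from these shares.

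Among type 2 cytokines, their receptors and Th2 surface proteins, 1 of 23 members on the other chromosomes was called in WT Th2 cells. This was *Il1rl1* (ENSMUSG00000026069, chromosome 1, 40429570 to 40465415, plus strand), which lay whole in chr1:40378221-40493030, a region of 114.8 kb that also held *Il18r1*, the gene of an IL-18 receptor chain. The start of *Il1rl1* was 6.06 kb from the middle of the region, and both promoters shown above lay in it. None of the other 6 lists of the series called this region. The type 2 cytokine cluster on chromosome 11, with *Il4*, *Il5*, *Il13*, *Rad50* and *Kif3a*, overlapped no mG900 region off chromosome 2. With 2.67% of all protein-coding genes in at least 1 list, the absence of 1 cluster is not read.

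Of 40 transcription factors of helper T cells, 4 (10%) were called in WT Th2 cells and 1, *Tox*, in WT naive cells. *Bcl11b*, which is needed for T lineage commitment, had 96.6% of its length in chr12:107881268-108000440, but its annotated start lay outside. *Ahr*, the aryl hydrocarbon receptor gene, had its start and 32.3% of its length in chr12:35523068-35666850, a region with no other protein-coding gene. *Zeb1*, which encodes a zinc finger repressor of *Il2*, had 83.2% of its length in chr18:5610590-5763309, with its start outside. *Stat6*, which acts downstream of the IL-4 receptor, *Batf*, *Irf4* and *Ets1* overlapped no mG900 region off chromosome 2. Nor did most genes, as 2.67% of all protein-coding genes overlapped a region of at least 1 list, so this absence is not read.

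Of 29 genes of naive T cells and T cell receptor signaling, 2 (6.90%) were called in WT Th2 cells. *Il7r* (chromosome 15, 9505788 to 9530176, minus strand) lay whole in chr15:9476166-9575315, the single WT Th2 region of that chromosome, and 18.1% of the fragment ends there were repeated. With the other bait, *Gata3*-TSS, a region of mG900KO Th2 cells overlapped this WT Th2 region but not *Il7r* itself. *Themis* had its start and 34.1% of its length in the long region on chromosome 10 named above. Of 17 cytokines of other helper T cells, 2 were called in WT Th2 cells. *Tgfb1*, the gene of TGF-β1, lay whole in chr7:25612548-25743816, among 10 protein-coding genes, and *Tnfsf11*, the gene of RANKL, lay whole in chr14:78240795-78358417 with no other protein-coding gene.

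Of a list of 24 genes of chromatin loop and Mediator proteins, which does not include *Med17*, 2 were called in WT Th2 cells, and neither encodes a Mediator subunit. *Crebbp*, which encodes a histone acetyltransferase, had its start and 47.4% of its length in chr16:4151161-4262630, and *Top2b*, which encodes topoisomerase IIβ, had its start and 82.1% of its length in chr14:16308647-16422902. Both genes also overlapped *Gata3*-TSS regions, *Crebbp* in mG900KO Th2 cells and *Top2b* in WT naive cells. The GATA family and its cofactors had 0 of 11 members in a region of any mG900 list. Beside the 2.67% of all protein-coding genes in at least 1 list, 11 genes are too few for this to be read.

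**Figure D5:**
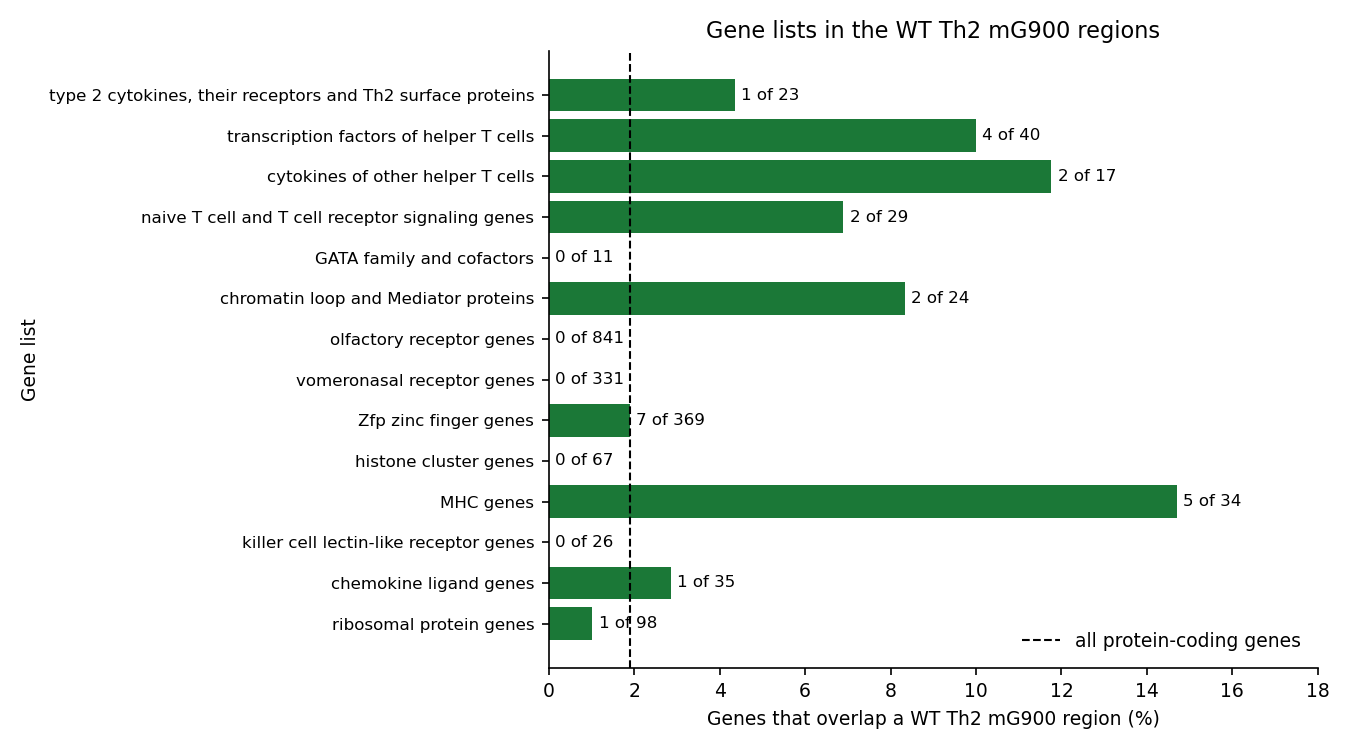
Percent of the genes of each list that overlap a WT Th2 mG900 region on the other chromosomes (bars, with the number called of the number on these chromosomes) beside the percent of all protein-coding genes (dashed line, 1.89%). The helper T cell transcription factors stand at 4 of 40, the MHC genes at 5 of 34 and the olfactory receptor genes at 0 of 841.

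Among gene families, 5 of 34 MHC genes were called in WT Th2 cells, and all 5 came from 1 region, chr17:34210619-34353370. These were the class II genes *H2-Ob*, *H2-Ab1*, *H2-Aa*, *H2-Eb1* and *H2-Eb2*. Of the large sensory receptor families, which lie in gene clusters, 0 of 841 olfactory receptor genes were in any list. Of 331 vomeronasal receptor genes, 1, *Vmn1r233*, was in a list, that of WT Th0 cells. Of all protein-coding genes, 2.67% overlapped a region of at least 1 list. Why these families had few calls was not tested. Of 369 *Zfp* genes, 7 (1.90%) were called in WT Th2 and 1 in WT Th0 cells, close to the share of all genes. Histone cluster genes (0 of 67) and killer cell lectin-like receptor genes (0 of 26) were not called, but beside that 2.67% these families are too small for this to be read. Of 35 chemokine ligand genes, *Cxcl13* was called in WT Th2 cells, and of 98 ribosomal protein genes, *Rpl7* was called in WT Th2 and *Rps27a* in WT Th0 cells.

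The other bait called some of the same places. Of the 272 loci, 33 overlapped a region of at least 1 *Gata3*-TSS list, 30 of them outside the set-apart loci. In WT Th2 cells 27 of 170 mG900 regions (15.9%, 10.7 to 22.3%) overlapped a *Gata3*-TSS region of any list, and 25 of 168 (14.9%) did so without the set-apart loci, against 3.32% of windows. In WT Th0 cells it was 7 of 68 (10.3%) and 4 of 65 (6.15%), and in WT naive cells 5 of 44 (11.4%) and 2 of 41 (4.88%).

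Within the same cell type, and without the set-apart loci, 7 of 168 WT Th2 regions (4.17%) overlapped a *Gata3*-TSS region of WT Th2 cells, which 0.639% of windows did. The counts were 0 of 65 in WT Th0 cells (0.98% of windows) and 2 of 41 in WT naive cells (1.77% of windows). WT Th2 mG900 regions also overlapped the *Gata3*-TSS lists of other cells, with 10 of 168 (5.95%) for WT naive, 10 of 168 for WT Th0 and 6 of 168 (3.57%) for mG900KO Th2 cells, which 0.932% of windows overlapped. As a share of the *Gata3*-TSS lists, without the set-apart loci, these were 6 of 63 regions (9.52%) in WT Th2, 10 of 175 (5.71%) in WT naive, 10 of 101 (9.90%) in WT Th0 and 6 of 93 (6.45%) in mG900KO Th2 cells. The overlap of WT Th2 regions with the other bait was therefore not limited to its own cell type.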

How the data were processed

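The data were 7 libraries of 4C-seq, 3 with the mG900 bait and 4 with the *Gata3*-TSS bait, with 1 library per condition. The authors called significant interacting regions per library with w4Cseq at a false discovery rate threshold, and the deposited values are region starts and ends in bases of mm10. Counts, signal and scores were not analysed here. Of 564 region edges, 563 lie on a CATG site of GRCm38, so positions were read as given.

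The members and gene lists were chosen with earlier results of these data known. Named were loci of at least 2 mG900 lists, the 3 longest loci of each single list, the set-apart loci, up to 6 genes of each, and every member of the 6 symbol lists in a region. Genes in neighboring runs, the *Zfp*, MHC and other families, the loci shared with *Gata3*-TSS lists and the immunoglobulin loci were named after their values were seen. Genes were taken from GENCODE M21 and promoters from RefSeq (GRCm38.p6). Overlap and joining functions were tested on 200 simulated pairs of lists, with 0 errors. The computations ran in Python 3.11.15 with numpy 2.4.6 and scipy 1.17.1, and figures were drawn with matplotlib 3.10.9. Alternatives changed the overlap required, the lengths and loci kept and how genes were counted. The labels name a NextSeq, the methods a NovaSeq. Labels and methods also differ on the enzyme of the later cut, as given above.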

Additional observations from a re-analysis of the deposited data

How the results depend on the processing

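Of 108 recomputed values, 78 stayed within the interval of the original or, for counts, within 1.5 times, and 30 moved. Keeping the regions at least as long as the median of their library left 22 WT naive, 34 WT Th0 and 85 WT Th2 regions. This rule keeps about 50% of each list by definition. The lower counts of regions, and much of the fall in loci and genes, thus follow from the rule itself. Of the loci, the rule left 135 of 1 list, 3 of 2 lists and 0 of all 3. It left 50, 41 and 208 genes in the 3 lists, an overlap of 0% between WT Th0 and WT Th2 regions in either direction, and 7.06% for WT Th2 regions with the *Gata3*-TSS lists. Of the gene lists it left 0 type 2 genes (*Il1rl1* lies in a region shorter than the median), 1 cytokine of other helper T cells, 1 naive T cell gene and 0 chromatin genes. Without the set-apart loci, 0 loci remained in all 3 lists, WT naive and WT Th0 regions overlapped by 2.44% and 1.54% of each list, and WT Th0 and WT Th2 regions by 0% of each. Counting regions within 100 kb as overlapping gave 10 loci of 2 lists. Requiring 50% of a WT Th2 region to overlap a *Gata3*-TSS region lowered 15.9% to 10%. Counting genes wholly inside a region gave 37, 62 and 220 genes in the naive, Th0 and Th2 lists, 0 transcription factors, 1 naive T cell gene and 0 chromatin genes. Counting gene starts gave 2 transcription factors. The chromosome ratios and the shares within 20 Mb of the first assembled base did not leave their intervals under any alternative run. The alternatives for the shares within 20 Mb were chosen after seeing the data.

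No paired analysis was possible because each condition has 1 library. Depth is unknown, and the lists do not show how far a locus that they lack was from the caller's threshold. The overlaps of lists rest on few regions.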

Other observations

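Several places were called with both baits in different cells. On chromosome 8, chr8:34411042-34513906 and chr8:34531086-34660106 were called with the mG900 bait in WT Th2 cells and overlapped no protein-coding gene. The first overlapped *Gata3*-TSS regions of Th0 and Th2 cells from WT mice, and the second those of all 3 WT cell types. A neighboring WT Th2 region, chr8:34788184-34951941, held *Dusp4*, which encodes a phosphatase of MAP kinases, and *Tnks*, a tankyrase gene, and overlapped no *Gata3*-TSS region. Of the loci outside the set-apart ones, 6 overlapped 2 *Gata3*-TSS lists and 1 overlapped 3. They also included chr10:19863653-20012987 with *Pex7* and *Map3k5*, chr13:13934556-14114047 with *B3galnt2*, *Tbce*, *Ggps1* and *Arid4b*, and chr14:20593441-20755154 with 9 protein-coding genes, among them *Camk2g*, a calcium-dependent kinase gene.

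Immunoglobulin variable segments, which B cells rearrange, lay in 2 WT naive regions. The region chr12:114409422-114521787 held 10 heavy chain segments, 3 of them pseudogenes, and overlapped a *Gata3*-TSS region of WT naive cells that held 6. The region chr6:69514479-69638874 held 10 κ chain segments, 6 of them pseudogenes. Repeated fragment ends made up 22.6% of the region on chromosome 12 and 51.2% of that on chromosome 6. The median over windows was 9.18%. None of the WT Th0 and WT Th2 mG900 regions off chromosome 2 held an immunoglobulin or T cell receptor segment. The share of windows that hold such segments is not given, so no difference between cell types is read from this.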
